A study of Homo sapiens with 10 samples.

Results

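The transcripts described here are those of the insulin-like growth factor (IGF) binding proteins IGFBP1 to IGFBP7 and of the receptors IGF1R, IGF2R and INSR. They are the 10 rows of the count table whose Ensembl identifiers carry these symbols in GENCODE 44, of 60448 rows in all, and all 10 were among the 16310 genes that had enough counts to be tested. RNA-seq compared untreated cells of the human lines EA.hy926 and HMEC-1, with 5 independent cultures of each line grown to confluence. EA.hy926 came from fusing umbilical vein endothelial cells with A549, a lung carcinoma line. HMEC-1 came from microvascular endothelial cells of the skin, made permanent with the SV40 large T antigen. EA.hy926 cells were kept in Advanced DMEM with 5% fetal bovine serum, and HMEC-1 cells in MCDB 131 with 10% serum, hydrocortisone (1 µg/mL) and epidermal growth factor (10 ng/mL). The study does not state whether either base medium contains insulin. Each line stands for a single cell line in its own medium, so that line and medium cannot be told apart in any difference given here.

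IGF-I, IGF-II and insulin are related hormones that act on the tyrosine kinase receptors IGF1R and INSR, which can also pair with each other as hybrid receptors. IGF2R is not a kinase but the cation-independent mannose 6-phosphate receptor, which takes IGF-II to lysosomes and sorts lysosomal enzymes. The IGFBPs are secreted proteins that hold IGFs away from the receptors or carry them, until proteases cut the binding protein, and endothelial cells are one of the sources of these proteins in tissues.

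The genes IGFBP2 and IGFBP5 are neighbours on chromosome 2 and showed the largest differences between the lines among the 10 genes, whereas IGFBP4 was close in level in both. Their sequences upstream of the transcription start are therefore printed, as RefSeq gives them for GRCh38.p14, 5′ to 3′ on the strand of the gene and ending at the base before the start. The IGFBP2 window is chr2:216633170-216633419 (plus strand), that of IGFBP5 is chr2:216695550-216695799 (minus strand) and that of IGFBP4 is chr17:40443200-40443449 (plus strand). Capitals mark GGGCGG (the GC box) in IGFBP2, TATTTAA in IGFBP5 and TATAAA (the TATA box) in IGFBP4.
IGFBP2: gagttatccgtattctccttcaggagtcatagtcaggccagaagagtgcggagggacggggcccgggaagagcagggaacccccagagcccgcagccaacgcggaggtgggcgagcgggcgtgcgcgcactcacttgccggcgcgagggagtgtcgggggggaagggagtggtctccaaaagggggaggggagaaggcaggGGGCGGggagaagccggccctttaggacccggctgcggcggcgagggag
IGFBP5: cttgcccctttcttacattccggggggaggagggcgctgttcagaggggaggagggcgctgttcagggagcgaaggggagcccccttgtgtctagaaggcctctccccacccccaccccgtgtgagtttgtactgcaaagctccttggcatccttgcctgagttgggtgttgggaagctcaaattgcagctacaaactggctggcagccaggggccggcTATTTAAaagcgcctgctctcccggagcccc
IGFBP4: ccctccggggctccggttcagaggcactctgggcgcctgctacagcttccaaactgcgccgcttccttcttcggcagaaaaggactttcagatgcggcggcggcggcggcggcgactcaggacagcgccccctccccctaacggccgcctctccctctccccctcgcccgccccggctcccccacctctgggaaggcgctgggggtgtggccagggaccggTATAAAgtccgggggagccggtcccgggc
RefSeq windows were at hand for 8 of the 10 genes, all except IGFBP1 and IGFBP7, and IGFBP2 had 3, of which the one with the most CpG dinucleotides is shown. The TATTTAA of IGFBP5 began 31 bases before the start and the TATAAA of IGFBP4 29 bases before it. Across all 35116 RefSeq windows of 250 bases, 4.17% held TATTTAA and 10.7% held TATAAA on either strand. The windows of IGFBP2, IGFBP6 and the receptors held none of the words of this kind that were searched. IGFBP3 had TATATA 30 bases before its start, a word in 3.73% of windows. The GC box of IGFBP2 lay 49 bases before the start, and GGGCGG was present in 42.6% of all windows. Each of the 8 genes except IGFBP5 had it in a window, but the IGFBP2 window with 56.4% G or C lacked it. The window shown for IGFBP2 had 69.2% G or C and 22 CpG dinucleotides, the count it was chosen by, and its other windows 56.8% with 7 and 56.4% with 4. The IGFBP5 window had 61.2% and 8, between those of IGFBP2, and the medians over all windows were 58.0% and 11. Receptor windows had 78.4% to 81.2% G or C, 28 to 48 CpG dinucleotides, and 2 GC boxes in IGF1R, 4 in INSR and 6 in IGF2R. The FOXO core word GTAAACA, held by 2.98% of windows, occurred in the IGFBP6 window alone among the 8 genes, 186 bases before the start. CACGTG (the E-box, in 6.34% of windows) occurred in IGF2R alone, 3 times. GCCNNNGGC (the AP-2 word, in 19.8% of windows) occurred in IGFBP5, IGFBP6, IGF1R and INSR. All words were searched on both strands. The words were chosen after the sequences were read, and a match is a description of the letters and not a site shown to be bound.

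Levels are given as CPM, counts per 1000000 counts of a library whose size was corrected by TMM factors, as mean ± SD over 5 libraries. Differences are given as the log2 fold change (log2FC) of EA.hy926 over HMEC-1 with its standard error (SE). A gene was called different when its adjusted p in edgeR's quasi-likelihood test was under 0.05 and its absolute log2FC was over 1. Total counts per library were 34846046 to 39899324 for EA.hy926 and 33391640 to 43877224 in HMEC-1, at which 3 counts correspond to 0.0651 to 0.0904 CPM. Correlations of log2 CPM were 0.995 to 0.996 within each line and 0.803 to 0.807 between the lines, and no library stood apart from its line. Of the 10 genes, 5 were called different, 1 higher and 4 lower in EA.hy926, while of all genes tested 35.5% were called, 19.1% higher and 16.4% lower. All 10 had an adjusted p under 0.05 at any fold, as had 85.8% of all genes tested. The ranges of the lines did not overlap for any of the 10, as for 77.4% of all genes tested. Their median log2FC was -0.67 and their median absolute log2FC 1.15, beside -0.01 and 0.65 over all genes tested.

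**Figure D1:**
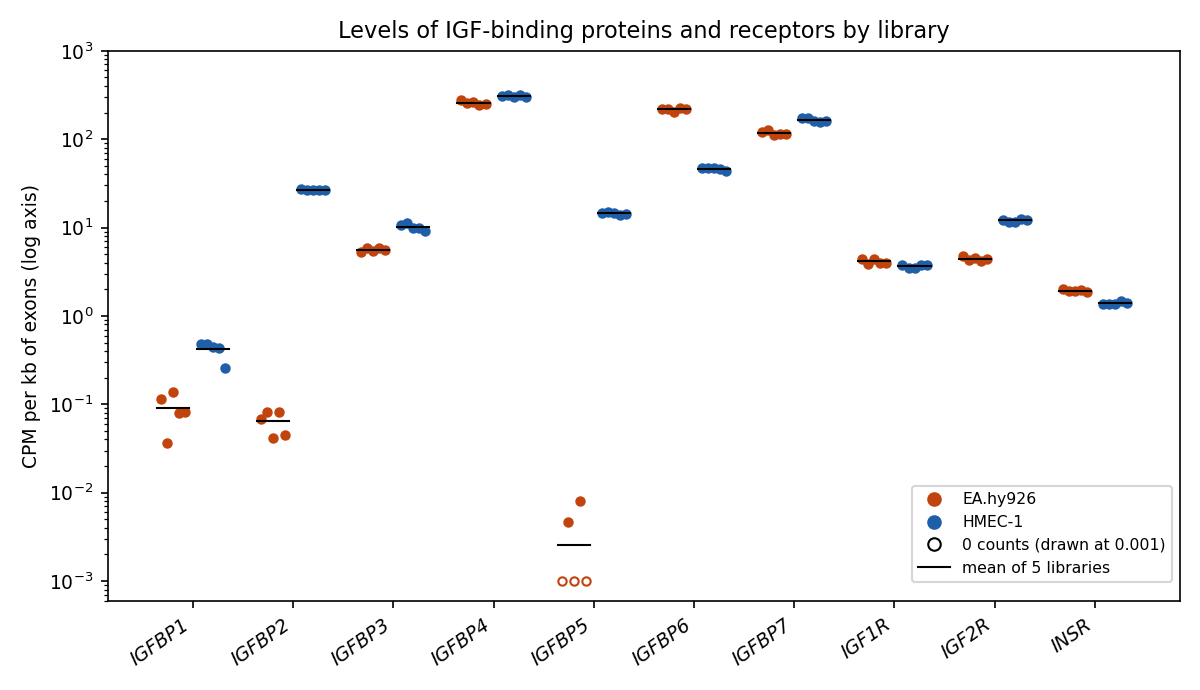
Level of each gene in every library, in CPM per kb of annotated exons on a log axis, with EA.hy926 in red, HMEC-1 in blue and the mean of 5 libraries as a black line. IGFBP4, IGFBP6 and IGFBP7 lie highest in EA.hy926, IGFBP2 and IGFBP5 lie near the bottom there and between 13.8 and 27.4 in HMEC-1, and open circles at 0.001 mark 3 EA.hy926 libraries with 0 counts of IGFBP5.

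IGFBP2, which binds both IGFs and also integrins, was present in HMEC-1 and nearly absent from EA.hy926. Its counts were 12, 13, 7, 15 and 8 in EA.hy926 libraries 1 to 5 and 4562, 5079, 5775, 5138 and 4792 in those of HMEC-1. Every HMEC-1 library thus lay far above every EA.hy926 library, with a narrow spread within HMEC-1. Mean levels of 126 ± 2.22 CPM in HMEC-1 and 0.304 ± 0.0927 CPM in EA.hy926 (n = 5 each) gave a log2FC of -8.68 (SE 0.066, edgeR adjusted p = 7.6e-28). In bulk RNA, fewer cells with a transcript and less transcript per cell cannot be told apart.

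IGFBP5, which binds extracellular matrix and, like IGFBP3, can form a large circulating complex with IGF and the acid-labile subunit, followed the same pattern. EA.hy926 libraries 1 to 5 held 0, 1, 0, 2 and 0 counts, no more than the 3 counts taken as the limit of detection, and the HMEC-1 libraries held 3278, 3921, 4391, 3650 and 3550. At this depth the transcript passed that limit in HMEC-1 alone, at 93.5 ± 2.53 CPM (n = 5). Taking 3 counts in a library as the floor, the level in EA.hy926 was lower by at least 1034-fold (edgeR adjusted p = 8.2e-27). DIRC3-AS1 covers 7.53% of the exonic bases of IGFBP5, and reads of overlapping genes cannot be told apart where the strand was not used in counting.

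These neighbours lie tail to tail at chr2:216632828-216664436 (IGFBP2, plus strand) and chr2:216672105-216695549 (IGFBP5, minus strand), with 7.668 kb between them (positions here and elsewhere are from GENCODE 44 on GRCh38). The difference was much smaller in the nearest tested protein-coding genes on either side, which were taken by position after the values of the pair were seen. Their midpoints lay at -349 to -125 kb from the middle of the pair on the left and at 1253 to 1603 kb on the right. On the left, log2FC values were -0.28 for MARCHF4, -0.30 for SMARCAL1 and -0.15 for the ribosomal protein gene RPL37A, whose counts are uncertain because such genes have many processed copies. On the right they were -0.89 for TNS1, -1.19 for ARPC2 and -0.48 for AAMP, of which only ARPC2 was called different. All 6 of these neighbours were thus lower in EA.hy926, and the difference of IGFBP2 exceeded the largest of them by more than 7 on the log2 scale. Within the pair, the ratio of IGFBP5 to IGFBP2 per kb of exons was 0.0642 ± 0.0358 in EA.hy926 and 0.543 ± 0.0193 in HMEC-1 (n = 5 each). Its log2 difference was -3.25 (exact two-sided permutation test, p = 0.00794, the smallest that 5 libraries against 5 allow, and 0.0106 after Benjamini-Hochberg adjustment over 4 such tests). Since IGFBP5 was at the floor in EA.hy926, this size depends on the pseudocount of 0.5 counts and became -1.91 with 2 counts.

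**Figure D2:**
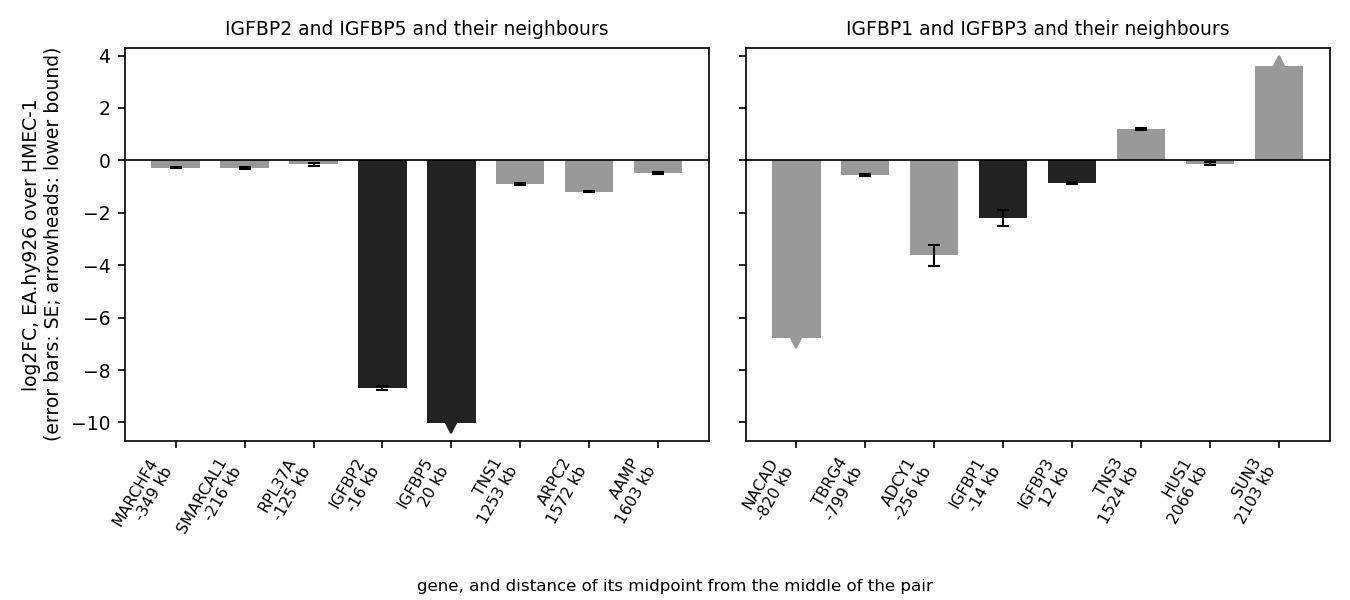
Log2FC of EA.hy926 over HMEC-1 for the pairs IGFBP2 and IGFBP5 (left) and IGFBP1 and IGFBP3 (right, black bars) and for the 3 nearest tested protein-coding genes on each side (grey bars), with the distance of each midpoint from the middle of the pair in kb. Error bars are SE, and arrowheads mark genes at no more than 3 counts per library in 1 line, drawn at the lower bound of their difference; IGFBP2 and IGFBP5 stand far below their neighbours.

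IGFBP1 and IGFBP3 form the other neighbouring pair, on chromosome 7, at chr7:45888360-45893660 (plus strand) and chr7:45912245-45921874 (minus strand), 18.584 kb apart. IGFBP1, whose liver transcript is held down by insulin, was scarce in both lines, with 7, 2, 8, 5 and 5 counts in EA.hy926 and 28, 32, 34, 29 and 16 in HMEC-1. All HMEC-1 libraries exceeded all EA.hy926 libraries, and HMEC-1 library 5 was the lowest of its line. Its mean was 0.690 ± 0.156 CPM in HMEC-1 and 0.148 ± 0.0638 CPM in EA.hy926, and the log2FC was -2.19 (SE 0.30, edgeR adjusted p = 8.2e-07).

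IGFBP3, the main carrier of IGFs in plasma, was expressed in both lines at a lower level in EA.hy926. CPM values were 24.0, 26.8, 24.9, 26.8 and 25.6 in EA.hy926 and 48.4, 52.0, 45.1, 45.3 and 42.2 in HMEC-1. The log2FC was -0.86 (SE 0.050, edgeR adjusted p = 5.3e-13), which misses the fold threshold. IGFBP1 differed more than IGFBP3: the ratio of IGFBP3 to IGFBP1 per kb of exons was 67.4 ± 36.2 in EA.hy926 and 24.8 ± 5.83 in HMEC-1 (n = 5 each). The log2 difference of this ratio was 1.32 (exact two-sided permutation test, p = 0.00794, adjusted 0.0106), and 1.03 with a pseudocount of 2 counts. The neighbours of this pair had no common direction: NACAD in EA.hy926 was at least 109.7-fold lower, ADCY1 had a log2FC of -3.62 and TBRG4 of -0.55 on the left, while on the right TNS3 had a log2FC of 1.20, HUS1 -0.13 (edgeR adjusted p = 0.071) and SUN3 was at least 12.3-fold higher. Midpoints of these neighbours lay at -820 to -256 kb from the middle of the pair on the left and at 1524 to 2103 kb on the right.

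IGFBP6, which prefers IGF-II over IGF-I, was the only binding protein of the 7 with a higher level in EA.hy926. CPM values were 293, 299, 274, 306 and 297 in EA.hy926 and 62.7, 64.0, 63.1, 61.1 and 59.3 in HMEC-1. The lowest EA.hy926 library was therefore more than 4 times the highest HMEC-1 library. The means of 294 ± 12.0 and 62.0 ± 1.87 CPM (n = 5 each) gave a log2FC of 2.24 (SE 0.032, edgeR adjusted p = 1.2e-23). IGFBP6 lies at chr12:53097436-53102345 (plus strand).

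IGFBP4, at chr17:40443450-40457725 (plus strand), and IGFBP7, at chr4:57030773-57110385 (minus strand), were abundant in both lines. IGFBP4, an inhibitor of IGF action that the protease PAPP-A cuts, had 606, 560, 577, 533 and 554 CPM in EA.hy926, below 675, 689, 669, 692 and 660 CPM in HMEC-1. The lines did not overlap, yet the difference was small, with a log2FC of -0.26 (SE 0.029, edgeR adjusted p = 4.8e-08). IGFBP7, a relative with weak affinity for IGFs that is deposited around blood vessels, had 232, 248, 217, 221 and 222 CPM in EA.hy926, below 334, 335, 306, 304 and 309 CPM in HMEC-1. Its log2FC was -0.48 (SE 0.036, edgeR adjusted p = 5.9e-11), below the fold threshold, and exons of IGFBP7-AS1 and POLR2B cover 18.3% of its exonic bases.

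**Figure D3:**
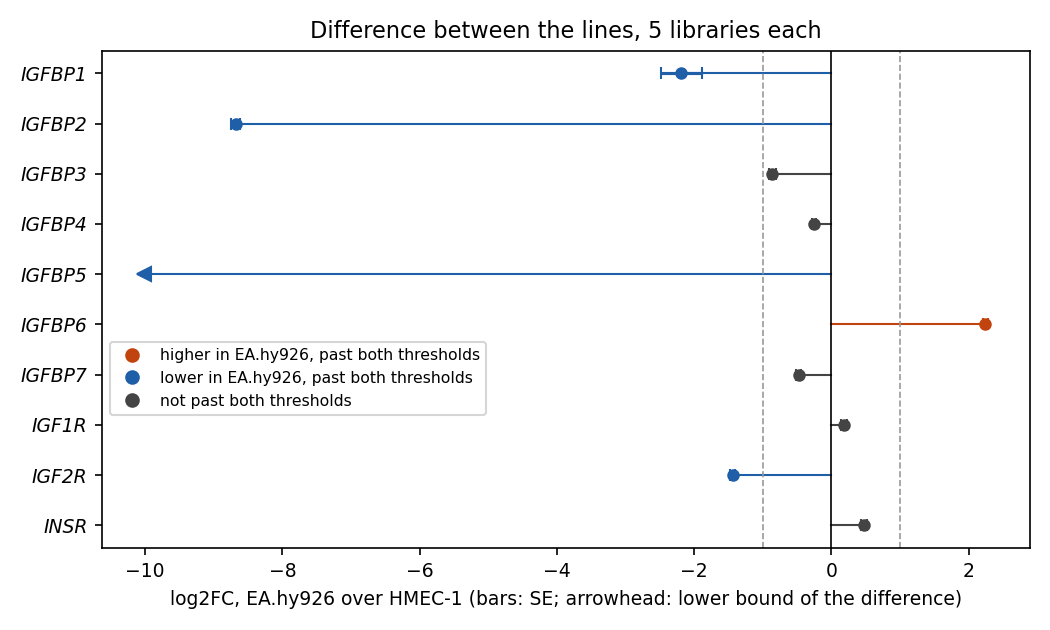
Log2FC of EA.hy926 over HMEC-1 for the 10 genes, with SE as bars, dashed lines at the fold threshold and colours for genes past both thresholds. IGFBP6 is the only gene past them to the right, at 2.24, IGFBP1, IGFBP2, IGFBP5 and IGF2R are past them to the left, and the arrowhead of IGFBP5 marks a lower bound.

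Levels of different genes were compared per kb of annotated exons, since long transcripts collect more reads. In EA.hy926 the order was IGFBP4 (257 CPM per kb), IGFBP6 (218), IGFBP7 (118), IGFBP3 (5.61), IGF2R (4.44), IGF1R (4.13), INSR (1.92), IGFBP1 (0.0904), IGFBP2 (0.0642) and IGFBP5 (0.00254). Only the neighbours IGF2R and IGF1R, and IGFBP1 and IGFBP2, overlapped in their ranges over the 5 libraries. In HMEC-1 the order was IGFBP4 (307 CPM per kb), IGFBP7 (165), IGFBP6 (46.1), IGFBP2 (26.6), IGFBP5 (14.5), IGF2R (12.0), IGFBP3 (10.2), IGF1R (3.65), INSR (1.39) and IGFBP1 (0.420), with no overlap between neighbours. IGFBP4 thus led in both lines, at the 99.1 percentile of tested protein-coding genes in EA.hy926 and the 99.5 percentile in HMEC-1, whereas IGFBP2 moved from the 88.0 percentile in HMEC-1 to the 7.06 percentile in EA.hy926. With the longest annotated transcript as the length, IGFBP4 (257 CPM per kb) and IGFBP6 (249.7) overlapped in EA.hy926, and in HMEC-1 IGFBP5 came after IGF2R and IGFBP3.

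Summed over the 7 binding proteins, the transcript level was nearly equal in the lines while its make-up differed. It was 599 ± 14.6 CPM per kb in EA.hy926 and 569 ± 13.3 in HMEC-1 (n = 5 each), a log2 difference of 0.073 (exact two-sided permutation test, p = 0.0159, adjusted 0.0159). The direction of this difference is not firm, since it became -0.062 with unscaled library totals and -0.25 when counts were not divided by length. IGFBP4 made up 42.9% ± 1.72 of the sum in EA.hy926 and 53.9% ± 0.927 in HMEC-1, and IGFBP7 19.7% ± 0.735 and 28.9% ± 0.887. IGFBP6 was 36.5% ± 1.50 of the sum in EA.hy926 against 8.09% ± 0.159 in HMEC-1. IGFBP2 made up 4.68% ± 0.118 in HMEC-1 and 0.0107% in EA.hy926. IGFBP5 made up 2.54% ± 0.0739 in HMEC-1 and was at or below the limit of detection in EA.hy926. IGFBP3 made up 0.937% in EA.hy926 and 1.79% in HMEC-1, and IGFBP1 0.0151% and 0.0736%. Shares are a description and were not tested.

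**Figure D4:**
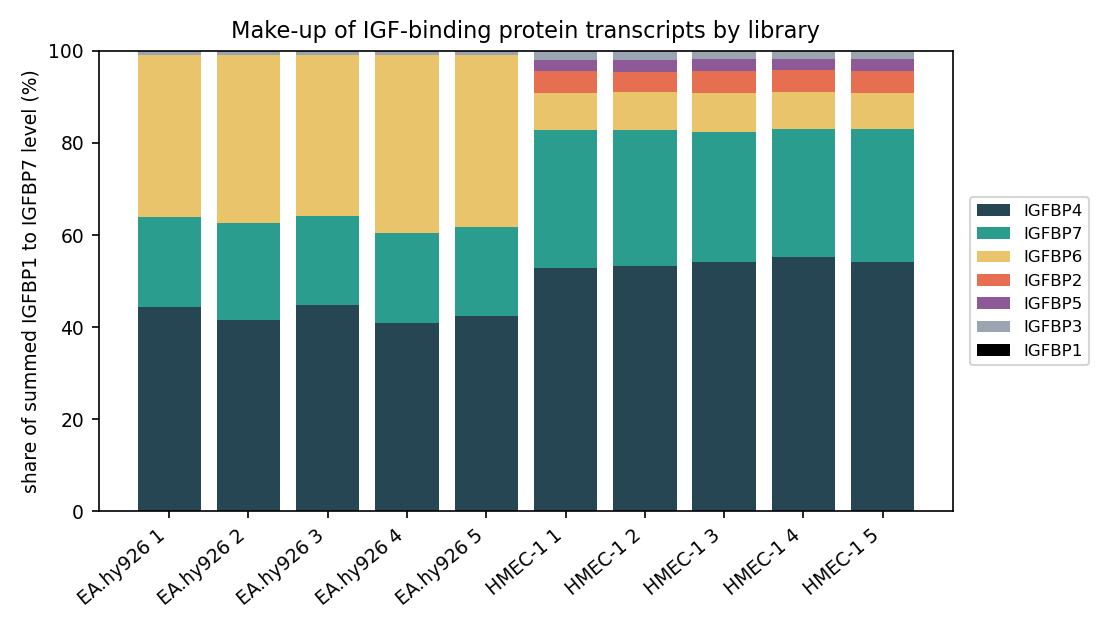
Share of each binding protein in the summed level of IGFBP1 to IGFBP7 (CPM per kb of exons, %), as 1 stacked bar per library. In all 5 EA.hy926 libraries IGFBP6 takes 34.9% to 38.6%, against 7.95% to 8.36% in HMEC-1, where IGFBP2 and IGFBP5 form visible bands.

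Among the receptors, IGF2R was the only one called different. It had 107, 97.1, 103, 95.8 and 98.6 CPM in EA.hy926, below 275, 263, 258, 284 and 278 CPM in HMEC-1. Each HMEC-1 library stood more than 2 times above every EA.hy926 library, and the log2FC was -1.44 (SE 0.033, edgeR adjusted p = 5.1e-20). IGF2R lies at chr6:159969082-160113507 (plus strand).

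IGF1R, the kinase receptor for both IGFs, differed little, with 61.7, 53.9, 61.3, 55.8 and 55.4 CPM in EA.hy926, above 52.9, 48.8, 48.1, 52.8 and 52.2 CPM in HMEC-1. The lowest EA.hy926 library lay next to the highest HMEC-1 library, without overlap. The log2FC was 0.18 (SE 0.041, edgeR adjusted p = 4.0e-04), but with unscaled library totals it was 0.04 with an edgeR adjusted p of 0.302. That scaling shifted the median log2FC over all genes by -0.13, so that a difference of the size of IGF1R's is comparable to the choice of scaling. IGF1R lies at chr15:98648539-98964530 (plus strand).

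INSR, the insulin receptor, had 21.6, 20.8, 20.6, 21.1 and 20.0 CPM in EA.hy926, above 14.7, 14.6, 14.7, 16.0 and 15.0 CPM in HMEC-1. Its log2FC was 0.47 (SE 0.045, edgeR adjusted p = 2.6e-09), below the fold threshold. The ratio of INSR to IGF1R within a library does not depend on library scaling and was 0.467 ± 0.0265 in EA.hy926 and 0.380 ± 0.0152 in HMEC-1, per kb of exons (n = 5 each). It was higher in all 5 EA.hy926 libraries than in any HMEC-1 library, by 0.30 on the log2 scale (exact two-sided permutation test, p = 0.00794, adjusted 0.0106). Per kb of exons, IGF1R transcripts exceeded those of INSR in all 10 libraries. INSR lies at chr19:7112255-7294414 (minus strand).

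Other genes of the pathway were read from lists by role, 78 genes of which 71 were tested. Of these, 21 were called different (29.6%, beside 35.5% of all genes tested), 14 higher and 7 lower in EA.hy926. Of the ligands, IGF1 and INS had 0 counts in all 10 libraries. IGF2, which overlaps other annotated genes over 44.4% of its exonic bases, had 19 to 37 counts in HMEC-1 and 10 to 23 in EA.hy926. The ranges overlapped, and the log2FC was -0.56 (edgeR adjusted p = 0.038, and 0.053 in DESeq2). In 5 of 10 fits that left out a library the edgeR adjusted p was above 0.05, at 0.053 to 0.129. IGF2 was thus detected at a low level in both lines, whereas IGF1 and INS were not detected. Of the exon length of IGF1, 82.5% also belongs to HELLPAR, and of that of INS, 37.5% belongs to INS-IGF2. Since counts of overlapping genes are uncertain here, the 0 counts do not show that transcripts of IGF1 and INS were absent.

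Of the list on cleavage of binding proteins, 4 of 4 genes tested were called higher in EA.hy926, 2 proteases and 2 inhibitors of them. Of all genes tested, 19.1% were called higher, and this short list was chosen with earlier results of these data known. PAPPA, the protease that cuts IGFBP4, averaged 26.2 ± 0.813 CPM in HMEC-1 and 55.7 ± 1.92 CPM in EA.hy926. Its log2FC was 1.09, and 0.96 with unscaled library totals. PAPPA2, a related protease that cuts IGFBP3 and IGFBP5, had 12 to 18 counts in EA.hy926, at least 4.71-fold more than HMEC-1 with its 0 to 2 counts. The stanniocalcins STC1 and STC2, secreted inhibitors of these proteases, had log2FC values of 1.21 and 1.46. Protease and inhibitor transcripts on this list were thus higher in the same line, whereas the protease gene HTRA1, counted with the relatives of binding proteins, was lower there. IGFBP4, the PAPP-A substrate, was the binding protein with the smallest absolute log2FC.

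Of the partners and relatives of binding proteins, 6 of 8 tested were called different (35.5% of all genes tested were), 3 in each direction. IGFBPL1, which shares domains with IGFBPs, had 76 to 106 counts in HMEC-1 and 0 in EA.hy926, where it was at least 25.0-fold lower. HTRA1, a secreted serine protease with an IGFBP-like domain, had a log2FC of -2.32, and CCN2 (connective tissue growth factor) -2.48, from 1272 ± 70.9 CPM in HMEC-1 to 228 ± 11.8 CPM in EA.hy926. In the other direction, the endothelial proteoglycan gene ESM1 had a log2FC of 1.95, and the CCN family genes CCN3 and CCN5 had 4.17 and 3.39. CCN3 was at 7 to 14 counts in HMEC-1 and CCN5 at 20 to 36, so that these large folds rest on low levels in that line.

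Genes that act on the receptors or beside them showed no call. None of the 9 tested genes for receptor processing and mannose 6-phosphate sorting passed both thresholds, which 35.5% of all genes tested did. All 9 had an adjusted p under 0.05, as had 85.8% of all genes tested. Their log2FC values ran from -0.90 to 0.94 with a median of 0.21, beside the -1.44 of IGF2R. Whether IGF2R differs from these genes was not tested. LRP1, a receptor that can bind IGFBP3, had a log2FC of -0.22, and TMEM219, a proposed receptor for IGFBP3, 0.31. INSRR, the insulin receptor-related receptor, had at most 3 counts in any library and was not tested.

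Below the receptors, the insulin receptor substrates stood out among the adaptors. On this list, 6 of 15 genes tested were called different, 4 higher and 2 lower. Of all genes tested, 35.5% were called, 19.1% higher and 16.4% lower, and whether the list departs from these shares was not tested. IRS1 averaged 81.2 ± 3.40 CPM in HMEC-1 and 6.40 ± 0.665 CPM in EA.hy926, and its log2FC was -3.66 (SE 0.052, edgeR adjusted p = 1.4e-23). IRS2 had 644 to 776 counts in HMEC-1 and 4 to 16 in EA.hy926, and its log2FC was -5.78 (SE 0.13, edgeR adjusted p = 4.7e-20). Transcripts of both docking proteins, which link INSR and IGF1R to PI3K, were thus lower in EA.hy926, with IRS1 still well detected there and IRS2 at few counts, while INSR and IGF1R transcripts were at or above their level in HMEC-1. Among genes that restrain signalling, SOCS1 (log2FC 3.48), SH2B3 (1.62) and GRB14 (1.24) were higher in EA.hy926. SH2B3 was the most abundant of these, at 111 ± 2.44 CPM in HMEC-1 and 342 ± 14.8 CPM in EA.hy926.

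Of the PI3K, AKT and FOXO genes, 2 of 23 tested were called different (8.70%, beside 35.5% of all genes tested). These were the AKT phosphatases PHLPP1 (log2FC -1.81) and PHLPP2 (-1.10), both lower in EA.hy926, and the median absolute log2FC of the list was 0.38. Of 7 tested genes known to be induced by FOXO factors, 2 were called (28.6%, near the share of all genes tested), SESN1 higher (log2FC 1.30) and IRS2 lower. Among the IGF2 mRNA-binding proteins, which bind IGF2 and many other transcripts, IGF2BP1 and IGF2BP3 had log2FC values of 2.86 and 2.26 and IGF2BP2 -0.90. IGF2BP3 stood at 43.8 ± 0.702 CPM in HMEC-1 and reached 209 ± 7.64 CPM in EA.hy926, while IGF2 itself was at a low level in both.

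**Figure D5:**
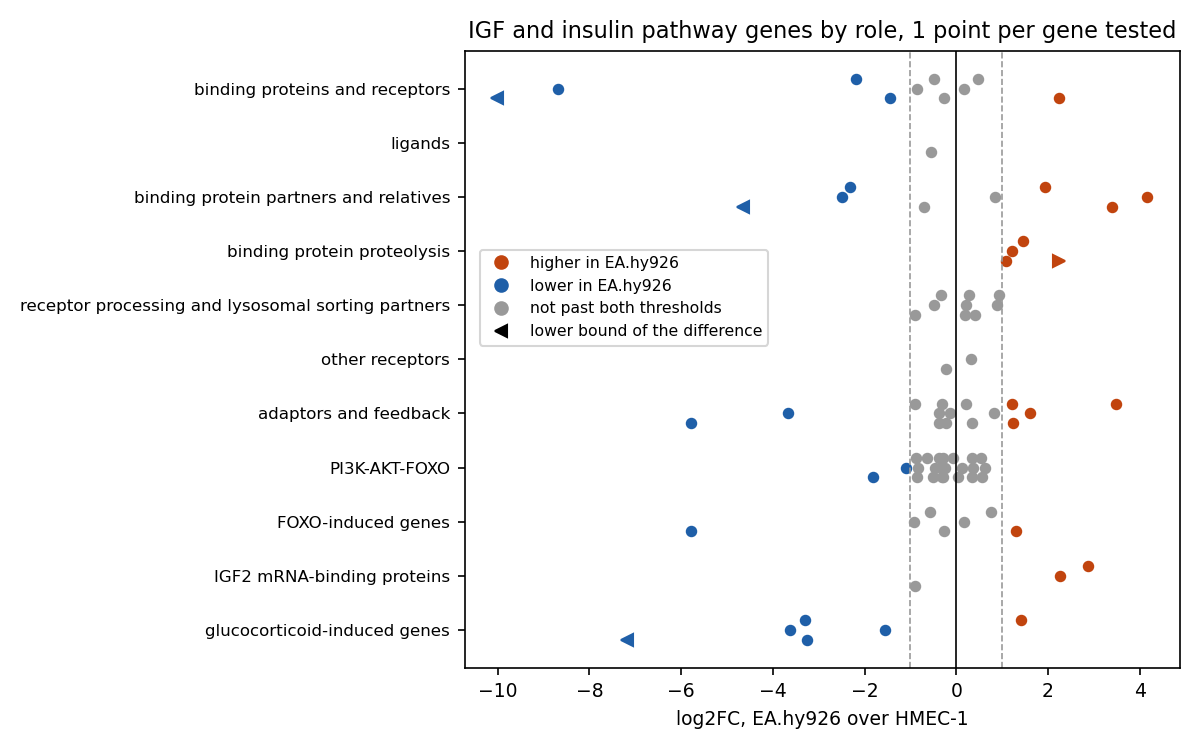
Log2FC of EA.hy926 over HMEC-1 for each tested gene, 1 point per gene and 1 line per role, with dashed lines at the fold threshold and arrowheads at the lower bound of genes at no more than 3 counts per library in 1 line. Sorting partners and most PI3K, AKT and FOXO genes lie between the dashed lines, while all 4 genes of the proteolysis list (2 proteases and 2 inhibitors) lie to the right and 5 of 6 glucocorticoid-induced genes to the left. Of all genes tested, 19.1% were called higher and 16.4% lower in EA.hy926.

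Hydrocortisone was added to the medium of HMEC-1 and is not named for that of EA.hy926. Of 6 genes known to be induced by glucocorticoids, 6 were called different, 5 of them lower in EA.hy926. Of all genes tested, 35.5% were called and 16.4% were called lower. This list was chosen with earlier results of these data known. KLF9 had a log2FC of -3.63 and PER1 of -3.30, and ZBTB16, listed at 0 in EA.hy926, was at least 145-fold lower. TSC22D3 went the other way, with a log2FC of 1.40. The 5 lower genes shared their direction with IGFBP1, IGFBP2, IGFBP5 and IGF2R, and with IGFBP3, IGFBP4 and IGFBP7, which missed the fold threshold. IGFBP6, IGF1R and INSR went the other way. The part of the hormone in these differences was not tested.

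Some markers of endothelial, epithelial and fibroblast or mural cells differed between the lines too, those of epithelial cells in both directions. Calls on these marker lists stand beside 35.5% of all genes tested, 19.1% called higher and 16.4% called lower in EA.hy926. All 10 endothelial markers were detected in every library of both lines, with a summed level of 1737 to 1788 CPM in HMEC-1 and 4735 to 5395 CPM in EA.hy926, and 6 were called higher and 0 lower in EA.hy926. Of 8 epithelial markers, which stand for the A549 parent, 5 were tested, 2 called higher and 2 lower, with a summed level of 125 to 143 CPM in HMEC-1 and 680 to 738 CPM in EA.hy926. In EA.hy926, KRT8 carried most of this sum, while CDH1, ESRP1 and GRHL2 were at 0 to 2 counts in all libraries. Of 6 fibroblast or mural markers, 3 were tested and all 3 were lower in EA.hy926, with a summed level of 366 to 393 CPM in HMEC-1 and 0.937 to 1.57 CPM in EA.hy926. COL1A1 made up most of it, at 358 ± 9.29 CPM in HMEC-1, PDGFRB was at 23.2 ± 1.29 CPM, and LUM and DCN were at 0 counts in all libraries. IGFBP2 and IGFBP5 shared this direction, and the part of such cells or of such a programme in their difference was not tested.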

How the data were processed

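RNA-seq libraries of EA.hy926 and HMEC-1 cells (5 each, line and replicate number from the sample labels) were analysed. The authors deposited the counts of reads per gene without scaling them or leaving out genes. Reads were aligned to GRCh38 with HISAT2. The study's methods name HTSeq for counting, while the submitters' processing notes name fastp, featureCounts and DESeq2. The annotation release and strand setting are not given in the sources used here, so counts of overlapping genes are uncertain. Libraries were made from mRNA enriched on oligo(dT) beads, with random hexamers for the first strand, and sequenced on a NovaSeq 6000.

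Symbols, positions and exon lengths came from GENCODE 44, which matched 56434 of 60448 identifiers. The filter on low counts was filterByExpr at its defaults (10 counts, 15 in total). After TMM scaling, the lines were compared in edgeR 4.0.16 (R 4.3.3) by glmQLFit with glmQLFTest, without covariates, as the study names none. Benjamini-Hochberg adjustment ran over the 16310 genes tested. The SE is the absolute log2FC over the square root of F. Where every library of a line had no more than 3 counts of a gene, its fold is a lower bound against the CPM of 3 counts, which covers counting error only. Single values per library were compared by exact permutation tests (scipy 1.17.1). Ratios carried 0.5 counts. Alternatives were DESeq2 1.42.0, limma-voom (limma 3.58.1), RLE factors, library totals, no filter, 10 counts in every library, glmTreat, a replicate block and each library left out. All pairs of libraries of a line differed by more than sampling noise. Upstream sequences came from the RefSeq table.

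Named genes are the 10 genes, every gene of lists of at most 4, and of longer lists the 3 highest and 3 lowest called log2FC values. The genes, lists and tests were chosen with earlier results of these data known. The alternative gene length for shares and order of levels, the sequence words and the neighbouring genes were chosen after seeing the data, and markers and genes counted by list are named as such.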

Additional observations from a re-analysis of the deposited data

Results flagged for a closer look

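In 6 of 90 groups of 5 libraries, 1 library lay far from the other 4, by Dixon's test at the 95% level, which chance gives in about 1 of 20 groups. HMEC-1 library 5 had an IGFBP1 level of 0.419 CPM, below 0.712 to 0.799 CPM in the others, and a log2 ratio of IGFBP3 to IGFBP1 of 5.14, above 4.42 to 4.55. It held 16 counts of IGFBP1 against 28 to 34. HMEC-1 library 1 had an IGFBP2 level of 130.1 CPM, above 124 to 126 CPM in the others. PAPPA was at 24.7 CPM in HMEC-1 library 3, below 26.4 to 26.6 CPM. TMEM219 was at 49.6 CPM in EA.hy926 library 5, below 53.1 to 53.9 CPM, and TSC22D3 at 141 CPM in EA.hy926 library 1, above 118 to 125 CPM. None of these libraries reached the range of the other line for the gene concerned.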

How the results depend on the processing

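Of 675 refits of single genes under the alternatives, all kept their direction. Under the joint rule of adjusted p and fold, 673 kept their call, 1 lost it and 1 gained it, both with library totals: PAPPA (log2FC 0.96) and IGF2BP2 (-1.04). The number of binding protein and receptor genes called, 5, held under all alternatives but 1. With at least 10 counts in every library it was 2 by construction, since IGFBP1, IGFBP2 and IGFBP5 were then not tested. The list count of 21 was 16 with that filter and 21 to 25 under the others. Leaving out a library gave 5 and 21 each time. The summed IGFBP level reversed to -0.25 without division by length and to -0.062 with library totals, whose shift of -0.13 in the median of all genes exceeds the difference of 0.073, and ranged from 0.061 to 0.083 with a library left out. Library totals gave 2809 genes higher and 3085 lower, against 3110 and 2674. Without a filter 9312 genes were called and with 10 counts in every library 3255, against 5784. With the replicate number as a block, 5 and 21 genes were called. The correlations of deviations of same-numbered libraries were -0.0228 to 0.0389 and 2 of 5 libraries correlated best with their own number. No pairing was thus seen, but so few libraries cannot exclude it, and the labels give only a number. On adjusted p alone, IGF2 passed 0.05 upwards in DESeq2 (0.053), with the block (0.055) and in 5 fits without 1 library: EA.hy926 1 (0.077), 4 (0.129) or 5 (0.053), or HMEC-1 4 (0.059) or 5 (0.111). IGF1R did so with library totals (0.302). In glmTreat, which tests against the fold threshold, genes short of that fold had an adjusted p of 1. With the longest transcript as gene length, chosen after seeing the data, IGFBP4 made up 38.0% of the summed level in EA.hy926 and 47.7% in HMEC-1. Depth limits IGFBP1, IGF2, PAPPA2 and, in EA.hy926, IGFBP2, IGFBP5 and IRS2, whose counts were low.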
